A study of Mus musculus with 8 samples.

Results

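The genes described here act in homologous recombination and Fanconi repair, the pathways that mend broken DNA ends and cross-linked strands. They are 39 of the 24677 genes counted in the study. They were taken from a list of symbols matched to the gene names of the deposited tables, and all 39 were found and passed the filter on low counts. The cells were 4T1, a mouse line of triple-negative breast cancer, grown in DMEM with 10% FBS without treatment, and total RNA was sequenced. The study asked what changes when the receptor tyrosine kinase Tyro3 is raised in parental 4T1 cells or removed from 4T1 cells that resist an antibody against PD1. The 8 libraries form 4 groups with 2 libraries each, called parental, overexpressing (parental with added Tyro3), resistant (to anti-PD1) and knockout (resistant without Tyro3). Every group shares the 4T1 background, and the knockout cells also share the resistant background. The labels do not give the promoter behind the overexpression, whether the knockout is 1 clone, or whether a group's libraries are from separate cultures. Thus p-values measure only the spread between these libraries, and this may be technical.

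Homologous recombination copies the sister chromatid and so belongs to the S and G2 phases of the cell cycle. Broken ends are first trimmed to single strands, BRCA proteins then prepare them to invade the sister strand, and nucleases and helicases resolve the joined molecules. The Fanconi pathway recognises cross-links, attaches ubiquitin to the FANCD2-FANCI pair and hands the lesion to the same recombination proteins, while the kinases ATM and ATR signal damage and stalled forks. Loss of several of these genes predisposes to breast cancer in humans.

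The genes lie on 15 chromosomes, with 7 on chromosome 11, and are all protein coding. Among them, Brca1 (ENSMUSG00000017146, chromosome 11, 101488764 to 101551955), Rad51d (ENSMUSG00000018841, chromosome 11, 82876434 to 82890614), Fancd2 (ENSMUSG00000034023, chromosome 6, 113531682 to 113597017) and Fance (ENSMUSG00000007570, chromosome 17, 28313519 to 28326572) have the same start and end in the deposited tables and in GENCODE vM21 (GRCm38). Between 18001482 and 27261282 reads were counted per library, and the filter left 14513 genes. Levels below are read counts scaled to library size (CPM) with factors from the trimmed mean of M-values (TMM). A change is a log2 fold change, given with the standard error (SE), and a gene was called when edgeR's quasi-likelihood test gave an adjusted p under 0.05 over all 14513 genes. Tyro3 stood at 25.7 and 24.4 CPM for parental, 107 and 103 for overexpressing, 20.7 and 21.2 for resistant and 3.81 and 3.99 for knockout cells. That is 419.5% of the parental mean in overexpressing and 15.6% in knockout cells, in the direction of both labels. Of the epithelial markers, Krt8 and Krt18 carried nearly all of the sum (929 CPM in parental, 836 in overexpressing, 514 in resistant and 788 in knockout cells), while Epcam was at 0.133 to 1.32 CPM and Cdh1 at 0.252 to 4.01 CPM. The fibroblast list of 7 genes summed to 97.3 to 98.1 CPM in parental, 202 to 209 in overexpressing, 176 to 191 in resistant and 104 to 105 in knockout libraries, carried by Pdgfra and Pdgfrb, with Col1a2 at 0 to 2 reads. Leukocyte markers, nearly all of it Cd68, summed to 18.1 and 16.9 CPM in overexpressing and 7.50 to 10.7 CPM in the other libraries. Ptprc had 0 to 3 reads, and endothelial markers summed to at most 1.01 CPM. Krt7, on the epithelial list, had 421 and 480 reads in parental and 14 and 11 in knockout libraries. The part of these markers in the results was not tested.

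Most of the repair genes stood lowest in the resistant cells, and in the knockout cells most stood near the parental level. Together the 39 genes summed to 1972 and 1999 CPM in the parental libraries, 1636 and 1612 in the overexpressing, 910 and 878 in the resistant and 2048 and 2039 in the knockout libraries. The resistant sum was 45% of the parental mean, the overexpressing sum 81.8% and the knockout sum 103%. For 33 of the 39 genes both resistant libraries lay below the other 6, as they did for 22.8% of all genes tested. In bulk RNA a lower level in every cell and fewer cells that express a gene cannot be told apart.

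**Figure D1:**
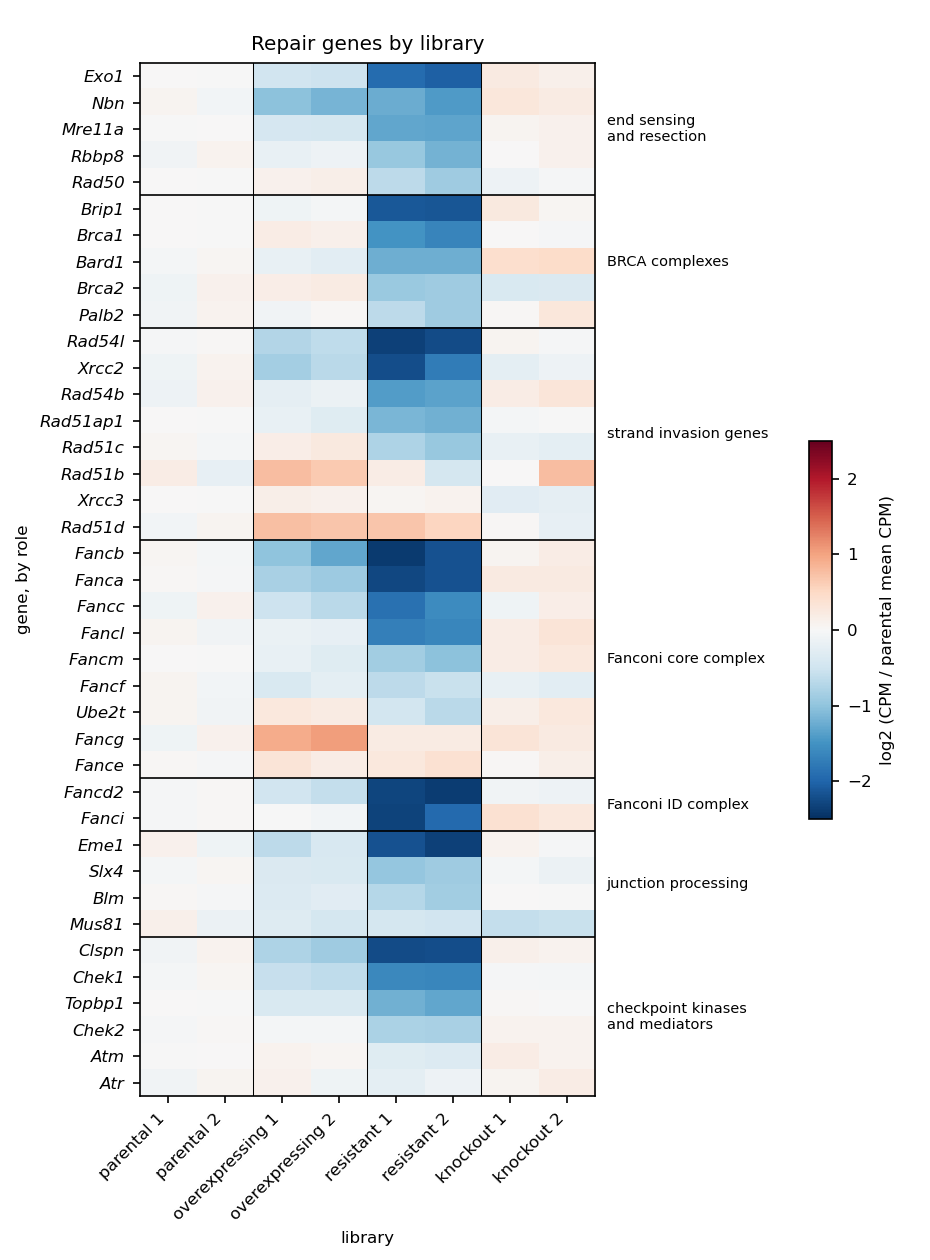
Level of each of the 39 repair genes (rows, grouped by role) in each of the 8 libraries (columns), as the log2 ratio of CPM to the parental mean, blue for lower and red for higher. The 2 resistant columns are the darkest blue, the overexpressing columns are mixed, and the knockout columns are close to the parental ones.

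Resistant against parental cells differed in most of the genes. Of the 39 genes, 34 fell and 2 rose, against 36.1% of all genes called lower and 35.1% called higher, and the median log2 fold change was -1.17 against 0.03 over all genes tested. In 21 genes the log2 fold change was -1 or lower, and in 8 of them -2 or lower. Fancd2, Rad54l, Fancb, Eme1, Clspn, Fanca, Fanci and Brip1 formed that set, which takes in 6 of the 7 roles. The groups did not overlap in 38 of 39 genes, against 84.2% of all genes tested.

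Knockout against resistant cells went the other way in most genes. This comparison shares the resistant libraries with the one before, so a low level in them enters both with opposite sign. Here 33 rose and 3 fell, against 37.1% of all genes called higher and 35.6% called lower, with a median of 1.17 against -0.02 over all genes. A log2 rise of at least 1 was found in 22 genes and of at least 2 in 9. Libraries of the 2 groups did not overlap in 38 genes, against 85.0% of all genes. The 3 that fell were Rad51d, Xrcc3 and Fance. The rise of Fancf did not pass without resistant library 1 (adjusted p = 0.053) or knockout library 1 (adjusted p = 0.051), with upper-quartile scaling (0.23, adjusted p = 0.095), in DESeq2 (adjusted p = 0.059) or by the authors' deposited table (adjusted p = 0.110). That of Atr did not pass with upper-quartile scaling (adjusted p = 0.066).

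Overexpressing against parental cells changed them less. In this comparison 20 fell and 8 rose, against 33.7% of all genes called lower and 32.5% called higher, and the median was -0.23 against 0.03. A log2 fold change of -1 or lower was found in 2 genes, Fancb and Nbn, and the groups did not overlap in 36 genes, against 82.5% of all genes. Of the 28 calls, 17 held under every alternative run, whereas 35 of 36 did in resistant against parental cells and 32 of 36 in knockout against resistant cells. Beside calls described with their genes below, the fall of Bard1 did not pass without parental library 2 (adjusted p = 0.10) or overexpressing library 2 (adjusted p = 0.11), nor did Rad51ap1 (adjusted p = 0.11) and Fancm (adjusted p = 0.099) without overexpressing library 2. With upper-quartile scaling these 3 falls were -0.09, -0.11 and -0.10 (adjusted p = 0.330, 0.247 and 0.246). None of the 3 was called in the authors' deposited table (adjusted p = 0.126, 0.086 and 0.075), nor Bard1 and Rad51ap1 in DESeq2 (adjusted p = 0.077 and 0.057). Fancf did not pass without parental library 1 (adjusted p = 0.13) or overexpressing library 1 (adjusted p = 0.17), with upper-quartile scaling (-0.17, adjusted p = 0.209), in DESeq2 (adjusted p = 0.132) or by the authors' deposited table (adjusted p = 0.186).

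**Figure D2:**
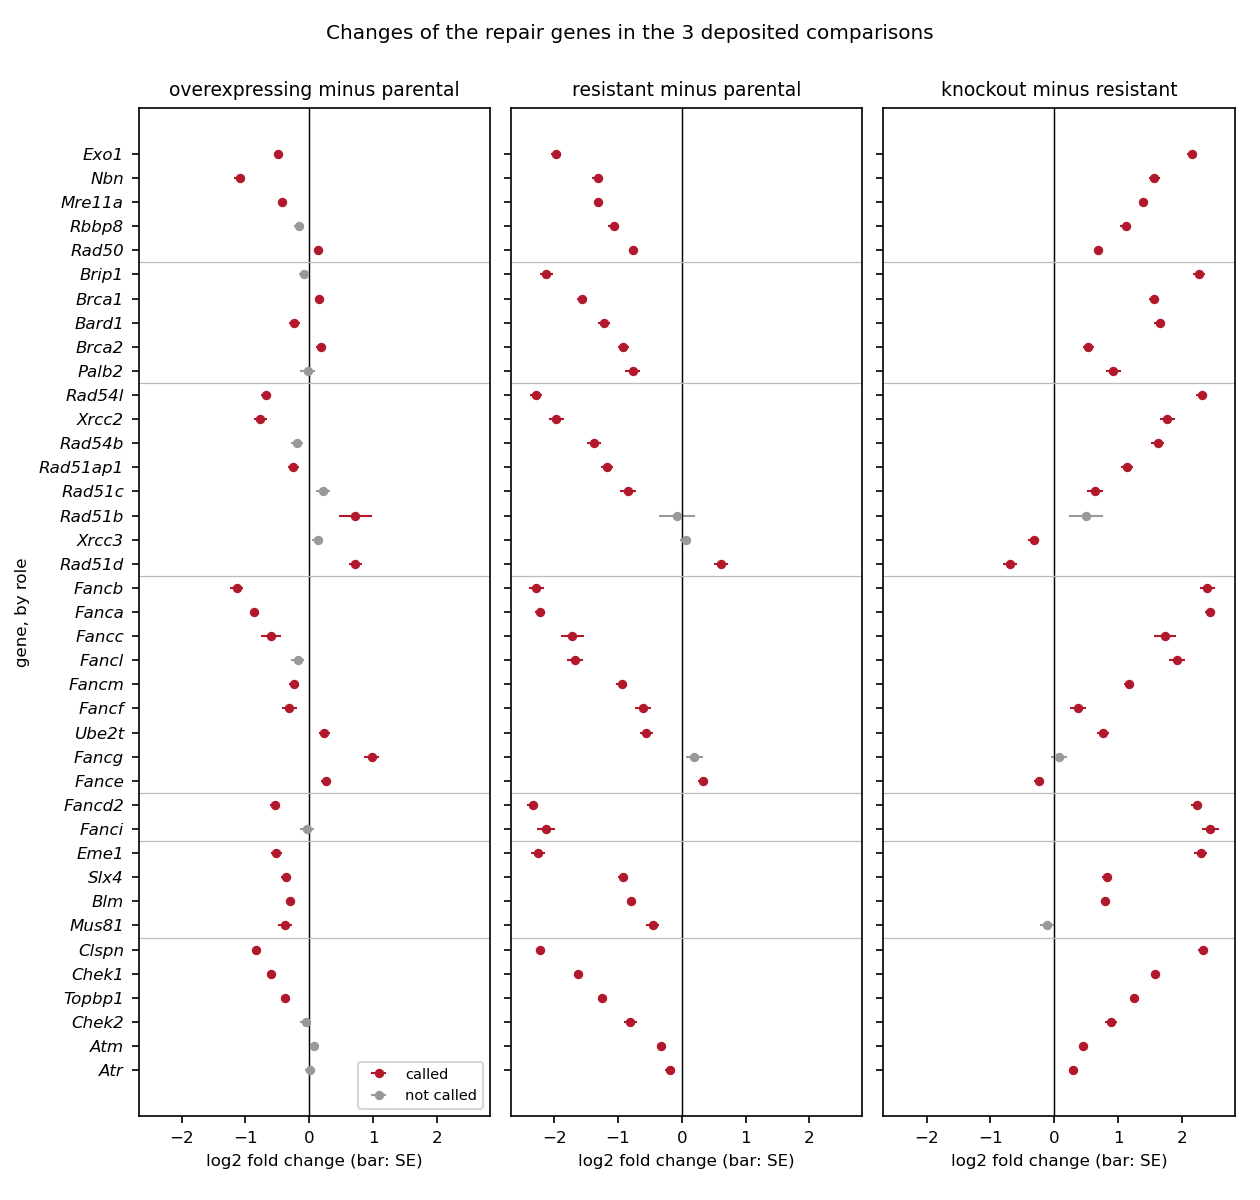
Log2 fold change of each repair gene (rows, grouped by role) in overexpressing minus parental, resistant minus parental and knockout minus resistant cells. Points are estimates with SE bars, red where the adjusted p was under 0.05 and grey otherwise. The middle panel lies mostly left of 0 and the right panel mostly right of it, down to -2.34 and up to 2.45.

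Promoter sequences were examined because so many of the genes moved together. RefSeq's promoter table (GRCm38.p6) held 31 of the 39 genes. The 250 bases before each start were searched on both strands for short words: the E2F site words TTTCCCGC, TTTGGCGC, TTTCGCGC and TTTGCCGC, the cell-cycle homology region (CHR) words TTTGAA or in its place TTCGAA, and the box CCAAT. E2F factors and the DREAM complex, which binds CHR elements, regulate many S and G2 phase genes, and NF-Y binds CCAAT. The following windows are of the 4 genes with the largest and the 4 with the smallest change in resistant cells among the genes described per library whose window had at least 100 consecutive bases outside any annotated exon, and only that stretch is shown. Capitals mark an E2F core word, which is any of the site words without its first T, or a CCAAT word, read on either strand.
Rad54l (chr4:116123691-116123839, minus strand): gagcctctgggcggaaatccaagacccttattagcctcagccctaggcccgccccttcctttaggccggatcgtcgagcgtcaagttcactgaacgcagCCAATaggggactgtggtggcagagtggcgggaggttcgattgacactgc
Fancb (chrX:164980376-164980591, plus strand): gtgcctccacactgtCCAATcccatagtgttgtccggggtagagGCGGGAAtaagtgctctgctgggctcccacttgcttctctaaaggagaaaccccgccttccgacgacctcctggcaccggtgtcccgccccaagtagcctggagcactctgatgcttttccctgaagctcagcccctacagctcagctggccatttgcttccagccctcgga
Clspn (chr4:126556730-126556934, plus strand): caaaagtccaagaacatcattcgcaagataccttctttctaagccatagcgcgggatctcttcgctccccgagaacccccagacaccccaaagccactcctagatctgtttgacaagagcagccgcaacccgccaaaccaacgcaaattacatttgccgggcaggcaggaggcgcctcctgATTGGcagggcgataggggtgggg
Brip1 (chr11:86201194-86201369, minus strand): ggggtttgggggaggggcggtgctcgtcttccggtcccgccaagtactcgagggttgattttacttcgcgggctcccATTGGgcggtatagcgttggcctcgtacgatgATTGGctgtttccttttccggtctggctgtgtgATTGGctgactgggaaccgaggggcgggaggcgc
Xrcc3 (chr12:111813880-111814129, minus strand): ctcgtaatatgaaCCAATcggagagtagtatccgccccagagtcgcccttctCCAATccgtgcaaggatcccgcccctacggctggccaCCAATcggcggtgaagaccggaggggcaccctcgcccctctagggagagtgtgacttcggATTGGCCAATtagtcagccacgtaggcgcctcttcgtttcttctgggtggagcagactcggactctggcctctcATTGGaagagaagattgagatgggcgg
Rad51b (chr12:79297032-79297281, plus strand): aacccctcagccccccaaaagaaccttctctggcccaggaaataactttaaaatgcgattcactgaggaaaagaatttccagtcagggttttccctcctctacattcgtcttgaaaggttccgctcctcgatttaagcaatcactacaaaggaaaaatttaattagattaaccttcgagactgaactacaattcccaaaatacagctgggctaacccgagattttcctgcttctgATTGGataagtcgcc
Atm (chr9:53536741-53536921, minus strand): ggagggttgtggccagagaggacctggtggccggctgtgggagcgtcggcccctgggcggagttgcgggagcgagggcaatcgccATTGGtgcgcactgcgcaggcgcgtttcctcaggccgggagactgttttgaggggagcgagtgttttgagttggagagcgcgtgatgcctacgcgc
Fance (chr17:28313280-28313518, plus strand): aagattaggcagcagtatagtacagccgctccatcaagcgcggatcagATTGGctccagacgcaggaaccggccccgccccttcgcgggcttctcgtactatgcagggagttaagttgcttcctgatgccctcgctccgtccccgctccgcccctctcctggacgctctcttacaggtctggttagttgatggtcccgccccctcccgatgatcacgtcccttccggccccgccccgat

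The first 4 windows belong to genes at -2.12 or lower and the last 4 to genes between -0.32 and 0.33 in resistant against parental cells. A CCAAT word stood in all 8 of them, with 6 in Xrcc3 and 3 in Brip1. An E2F core word stood in 1, that of Fancb. Over the 31 genes, a CCAAT word was found in 19 (61.3%, against 36.8% of the 10058 tested genes in the table). The promoter was chosen by another rule for the 31 genes than for all others, which limits this and the following shares. The E2F site words were found in 5 (16.1%, against 3.5%) and the CHR words in 2 (6.45%, against 12.3%). The E2F core words, a set chosen after the longer words had been counted, were found in 11 (35.5%, against 14.4%), and a core word overlapped a CCAAT word in 2 of the 31. With only the 100 bases before the start, the counts were 13 for CCAAT, 1 for the E2F site words, 3 for the core words and 0 for the CHR words (41.9%, 3.23%, 9.68% and 0%, against 23.5%, 1.56%, 6.86% and 3.47%). For the 250 bases, the median log2 fold change in resistant against parental cells was -0.85 in the 11 genes with a core word and -1.44 in the 20 without. It was -0.94 in the 19 with a CCAAT word and -1.07 in the 12 without. Over all tested genes the order was the other way, at -0.21 in the 1449 with a core word and 0.006 in the 8609 without. For CCAAT it was -0.04 in the 3705 with the word and -0.009 in the 6353 without. With only 100 bases the order of the repair genes turned for CCAAT, at -1.17 in the 13 with it and -0.92 in the 18 without. All tested genes then stood at -0.08 with CCAAT and -0.003 without. The order for core words did not turn, at -0.85 in the 3 repair genes with one and -1.19 in the 28 without.

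End sensing and resection genes all fell in resistant cells and all rose in knockout against resistant cells. Exo1, the exonuclease that extends the single strand, stood at 64.6 and 64.4 CPM in its parental libraries, 46.6 and 45.4 in the overexpressing, 17 and 15.8 in the resistant and 75.8 and 70.5 in the knockout ones. Its resistant libraries were the lowest of the 8 and its knockout libraries the highest. It fell by 1.97 in resistant cells (SE 0.07, adjusted p = 9.48e-27), and by 0.49 in overexpressing cells (SE 0.06, adjusted p = 7.23e-09). Rad50, the ATPase that holds both ends together, stood at 100.1 and 99.9 CPM for parental, 108 and 111 for overexpressing, 63.2 and 54.2 for resistant and 91.3 and 98.3 for knockout cells. Its overexpressing libraries were the highest and the resistant ones the lowest, with no overlap between those groups. Rad50 changed by -0.77 in resistant cells (SE 0.06, adjusted p = 5.71e-16). Its rise of 0.13 in overexpressing cells (SE 0.05, adjusted p = 0.030) did not pass without overexpressing library 2 (adjusted p = 0.21), without either parental library, without knockout library 2, without a filter, in DESeq2 or in the authors' deposited table. Rbbp8 encodes CtIP, which starts resection with the Mre11a nuclease, and stood at 36.6 and 41 CPM in its parental libraries, 34.1 and 35.5 in the overexpressing, 20.1 and 17.1 in the resistant and 39.2 and 41.9 in the knockout ones. Its resistant libraries were the lowest, and its overexpressing libraries were not called against the parental ones (adjusted p = 0.0734). Nbn, the adaptor that recruits ATM, fell to 46.9% of the parental mean in overexpressing and 40.1% in resistant cells, and Mre11a to 74% and 40.4%.

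The BRCA complex genes also fell together in resistant cells, 5 of 5, and rose together in knockout against resistant cells. Brca1, which with Bard1 forms a ubiquitin ligase that favours recombination, stood at 64.8 and 64.2 CPM for parental, 73.1 and 70.1 for overexpressing, 23 and 20.5 for resistant and 65 and 63 for knockout cells. Its overexpressing libraries were above the parental ones and its resistant libraries far below every other library. Brca1 changed by -1.57 in resistant cells (SE 0.07, adjusted p = 6.10e-24) and rose by 1.56 in knockout against resistant cells (SE 0.07). Brip1, a helicase that binds Brca1, stood at 35.5 and 35.3 CPM in its parental libraries, 32.8 and 34 in the overexpressing, 8.18 and 8.07 in the resistant and 41.8 and 36.7 in the knockout ones. The parental, overexpressing and knockout libraries lay close together, and the resistant ones were at 23% of the parental mean. Palb2, the bridge from Brca1 to Brca2, stood at 14.7 and 16.6 CPM for parental, 14.8 and 16.1 for overexpressing, 9.91 and 8.52 for resistant and 16.1 and 19.1 for knockout cells. Here too the resistant libraries were the lowest, with the other groups overlapping. Brca2, which acts on the single strands before invasion, stood at 36.6 and 42.1 CPM in its parental libraries, 44.3 and 45.3 in the overexpressing, 20.7 and 21.2 in the resistant and 30.3 and 30.4 in the knockout ones. It was the BRCA complex gene with the smallest rise in knockout against resistant cells, 0.54 (SE 0.08, adjusted p = 1.97e-07), and it was called lower in knockout than in parental cells (-0.38, SE 0.08, adjusted p = 1.25e-04). Small rises of Brca1 (0.15, SE 0.06) and Brca2 (0.18, SE 0.07) in overexpressing cells were called (adjusted p = 0.0273 and 0.0296). Without overexpressing library 1 their adjusted p was 0.19 and 0.067, and the calls were also lost without parental library 1, without overexpressing library 2, without a filter, in DESeq2 and in the authors' deposited table (adjusted p = 0.188 and 0.219), and that of Brca1 without parental library 2 or knockout library 2. Bard1 stood at 43% of the parental mean in resistant cells and 136% in knockout cells.

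Strand invasion genes were the most mixed role. In resistant against parental cells 5 of the 8 fell, 1 rose and 2 were not called. Rad54l, a motor protein that helps strands invade the partner duplex, stood at 42.2 and 44.4 CPM for parental, 26.1 and 27.9 for overexpressing, 8.58 and 9.2 for resistant and 45.4 and 42.7 for knockout cells. The overexpressing libraries lay between the parental and the resistant ones without overlap. Rad54l changed by -2.28 in resistant (SE 0.09, adjusted p = 1.39e-25) and -0.68 in overexpressing cells (SE 0.08, adjusted p = 1.94e-10). Its relative Rad54b stood at 18.5 and 21.8 CPM in its parental libraries, 17.2 and 18.2 in the overexpressing, 7.65 and 7.94 in the resistant and 23 and 25 in the knockout ones. Its resistant libraries were the lowest, at 38.7% of the parental mean, and 35.8% of its exon bases are shared with Fsbp on the same strand, which was counted at 168 reads over all libraries. Xrcc2, which acts in a complex with Rad51d, fell to 58.9% in overexpressing and 25.6% in resistant cells, and Rad51ap1, which promotes strand invasion, to 84.2% and 44.5%.

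Rad51b, Rad51c, Rad51d and Xrcc3 act in complexes that assist invasion, and their changes were not alike. In resistant against parental cells Rad51d was called higher, Rad51c lower, and Rad51b and Xrcc3 were not called. Rad51d stood at 12.9 and 14.1 CPM for parental, 22.9 and 21.8 for overexpressing, 21.8 and 19.6 for resistant and 13.8 and 11.7 for knockout cells. Overexpressing and resistant libraries were all above the parental and knockout ones. It rose by 0.72 in overexpressing cells (SE 0.10, adjusted p = 5.84e-08) and by 0.61 in resistant cells (SE 0.11, adjusted p = 1.92e-06), and fell by 0.69 in knockout against resistant cells (SE 0.10, adjusted p = 1.04e-07). Rad51c, its partner in one of these complexes, stood at 14.1 and 13.2 CPM in its parental libraries, 15.3 and 16.2 in the overexpressing, 8.05 and 7.12 in the resistant and 12 and 11.6 in the knockout ones. Its resistant libraries were the lowest and its overexpressing ones the highest, though the latter were not called against parental cells (adjusted p = 0.0944). Xrcc3, the partner of Rad51c in the other complex, stood at 24.3 and 24.3 CPM for parental, 27.1 and 26.3 for overexpressing, 25 and 25.8 for resistant and 20.1 and 20.8 for knockout cells. All its libraries lay within a narrow range, with the knockout ones lowest and called below the resistant ones (-0.32, SE 0.09, adjusted p = 0.00106), a call not made in the authors' deposited table (adjusted p = 0.079). Rad51b, the gene with the fewest reads (42 in its lowest library), stood at 2.91 and 2.21 CPM in its parental libraries, 4.35 and 4.05 in the overexpressing, 2.92 and 1.89 in the resistant and 2.56 and 4.39 in the knockout ones. Its resistant and knockout libraries overlapped the parental ones, and only the overexpressing libraries were both above them (0.72, SE 0.26, adjusted p = 0.0138). That call was lost without parental library 2 (adjusted p = 0.15) or overexpressing library 1 (adjusted p = 0.059), in DESeq2 (adjusted p = 0.101), without a filter (adjusted p = 0.111) and in the authors' deposited table (adjusted p = 0.116).

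In the Fanconi core complex, the ubiquitin ligase of the pathway, counted here with its partner enzyme Ube2t, 7 of 9 genes fell in resistant cells and 1 rose. Fancb, which sits with the ligase subunit Fancl, stood at 26.1 and 24.4 CPM for parental, 12.6 and 10.3 for overexpressing, 4.82 and 5.59 for resistant and 26.4 and 28.7 for knockout cells. Overexpressing libraries lay between the parental and the resistant ones, at 45.3% and 20.6% of the parental mean. Fancb fell by 2.28 in resistant cells (SE 0.12, adjusted p = 4.51e-21) and by 1.14 in overexpressing cells (SE 0.11, adjusted p = 5.60e-13). Fancl stood at 17.6 and 15.8 CPM in its parental libraries, 14.8 and 14.5 in the overexpressing, 5.13 and 5.37 in the resistant and 19.1 and 20.9 in the knockout ones. Only the resistant libraries were far from the parental ones (-1.67, SE 0.13), and the overexpressing ones were not called (adjusted p = 0.125). Ube2t, the enzyme that brings ubiquitin to Fancl, stood at 25.8 and 23.2 CPM for parental, 29.4 and 28.3 for overexpressing, 17.9 and 15.5 for resistant and 27.3 and 29.3 for knockout cells. Its fall in resistant cells was smaller (-0.55, SE 0.10, adjusted p = 1.91e-06), and its overexpressing libraries were called above the parental ones (0.24, SE 0.09, adjusted p = 0.0174), in a call lost in DESeq2, without a filter, in the authors' deposited table and without parental library 2 or overexpressing library 1, with adjusted p up to 0.227. Fanca, the scaffold that pairs with Fancg, fell to 21.4% of the parental mean in resistant cells and Fancc, a partner of Fance, to 30.5%. Fancm, which anchors the complex to DNA, fell to 52.1% and Fancf, an adaptor, to 65.6%.

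Fance and Fancg did not follow the rest of the core complex. Fance, the subunit that contacts Fancd2, stood at 32.5 and 31.3 CPM in its parental libraries, 39.7 and 36.3 in the overexpressing, 38.3 and 41.7 in the resistant and 32.5 and 35.3 in the knockout ones. Overexpressing and resistant libraries were both above all parental and knockout ones. It rose by 0.33 in resistant cells (SE 0.08, adjusted p = 2.82e-04) and fell by 0.24 in knockout against resistant cells (SE 0.08, adjusted p = 0.00432). The latter call was lost without resistant library 2 (adjusted p = 0.084) and without knockout library 1 (adjusted p = 0.11), without a filter (adjusted p = 0.073) and in the authors' deposited table (adjusted p = 0.126). Its rise in overexpressing cells (0.25, SE 0.08, adjusted p = 0.00407) did not pass without parental library 2 (adjusted p = 0.051) or overexpressing library 1 (adjusted p = 0.094), or by the authors' deposited table (adjusted p = 0.086). Fancg stood at 7.84 and 9.04 CPM for parental, 16 and 17.4 for overexpressing, 9.69 and 9.74 for resistant and 10.6 and 9.9 for knockout cells. The overexpressing libraries were the highest by a wide margin, at 198% of the parental mean, a rise of 0.98 (SE 0.12, adjusted p = 1.38e-09). Neither resistant against parental (adjusted p = 0.174) nor knockout against resistant cells (adjusted p = 0.572) differed in Fancg by the test.

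Fancd2 and Fanci, the clamp that the core complex marks with ubiquitin, fell in resistant cells to some of the lowest shares of the parental level. Fancd2 stood at 49.2 and 51.8 CPM in its parental libraries, 36.2 and 33.3 in the overexpressing, 10.3 and 9.69 in the resistant and 47.8 and 46.5 in the knockout ones. Its resistant libraries were at 19.8% of the parental mean, and the overexpressing ones lay in between. The log2 fold change of -2.34 (SE 0.09, adjusted p = 7.28e-27) was the lowest of the 39 genes in resistant against parental cells. Fanci stood at 15.5 and 16.3 CPM for parental, 15.8 and 15.1 for overexpressing, 3.18 and 4.1 for resistant and 20.6 and 19.1 for knockout cells. Parental and overexpressing libraries overlapped, the resistant ones were far below and the knockout ones above. Fanci rose by 2.45 in knockout against resistant cells (SE 0.13, adjusted p = 4.15e-21), the highest value of the 39 genes, and stood above parental cells by 0.32 (SE 0.11, adjusted p = 0.0143). Some 16.0% of its exon bases are shared with Polg on the other strand, a gene with 13129 reads over all libraries against 2419 for Fanci, and whether counting used strand is not stated in the sources used here. The same limit holds for Rad54l, Fanca, Fancf and Fancl, where 10.5% to 15.4% of the exon bases are shared with a gene on the other strand. Fancc (1212 reads) shares 16.4% with Gm16133, which had only 27 reads, and 2.2% with 2010111I01Rik (7192 reads). Smaller shares can also matter where the neighbour has many reads. Eme1 (4260 reads) shares 8.0% with Lrrc59 (64510 reads), and Mus81 (2727 reads) shares 4.85% with Efemp2 (16410 reads).

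Junction processing genes all fell in both overexpressing and resistant cells. Eme1, which with Mus81 forms a nuclease that cuts branched DNA, stood at 36 and 31 CPM in its parental libraries, 21.3 and 25.5 in the overexpressing, 7.39 and 6.63 in the resistant and 35.6 and 33 in the knockout ones. The overexpressing libraries lay between the parental and resistant ones without overlap. Eme1 changed by -2.25 in resistant cells (SE 0.11, adjusted p = 2.13e-22) and -0.51 in overexpressing cells (SE 0.09, adjusted p = 3.99e-06). Mus81, its catalytic partner, stood at 21.9 and 17.9 CPM for parental, 15.8 and 14.6 for overexpressing, 14.6 and 14.3 for resistant and 13.1 and 13.5 for knockout cells. The parental libraries were the highest, and the overexpressing, resistant and knockout ones were all below them. Between knockout and parental cells Mus81 changed by -0.58 (SE 0.11, adjusted p = 2.79e-05) and was not called between knockout and resistant cells (adjusted p = 0.327). Its fall in overexpressing cells (-0.38, adjusted p = 0.00154) did not pass without parental library 1 (adjusted p = 0.090). Slx4, the scaffold for such nucleases, fell to 52.7% of the parental mean in resistant cells and Blm, the helicase that takes joined molecules apart, to 57.7%.

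Among the checkpoint genes, the apical kinases differed little and the mediators and effectors more. Clspn, the adaptor through which ATR activates Chek1, stood at 101 and 114 CPM in its parental libraries, 63.3 and 57.9 in the overexpressing, 23 and 23.2 in the resistant and 117 and 114 in the knockout ones. The order was parental and knockout highest, overexpressing between, resistant lowest. Clspn fell by 2.22 in resistant cells (SE 0.07, adjusted p = 7.41e-31) and by 0.83 in overexpressing cells (SE 0.06, adjusted p = 3.22e-17). Atr stood at 44.1 and 49.1 CPM for parental, 50.1 and 43.5 for overexpressing, 39.6 and 42.8 for resistant and 49.1 and 52.7 for knockout cells. Its groups differed little, and its fall of 0.18 in resistant cells (SE 0.07, adjusted p = 0.0301) did not pass without resistant library 1 (adjusted p = 0.21) or parental library 2 (adjusted p = 0.32). With upper-quartile scaling the change was -0.02 (adjusted p = 0.838), and the call was also lost in DESeq2, with either other filter and in the authors' deposited table (adjusted p = 0.078 to 0.153). Atm, the kinase that answers double-strand breaks, stood at 56.9 and 58 CPM in its parental libraries, 61.2 and 59.6 in the overexpressing, 46.6 and 45.4 in the resistant and 65 and 60.8 in the knockout ones. Its resistant libraries were the lowest, with a change of -0.32 (SE 0.06, adjusted p = 1.88e-05). Chek2, the kinase downstream of Atm, stood at 23.6 and 24.3 CPM for parental, 23 and 23.1 for overexpressing, 13.9 and 13.6 for resistant and 25.5 and 25.5 for knockout cells. The resistant libraries were far below the other 6. Chek1 fell to 66.1% of the parental mean in overexpressing and 32.5% in resistant cells, and Topbp1, the activator of ATR, to 76.7% and 42.2%.

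Some of these genes changed in opposite directions in the overexpressing and the knockout line, each compared with the cells it was made from. The comparisons of overexpressing with parental cells and of knockout with resistant cells share no library, and 19 genes were called lower in the former and higher in the latter, as were 25.9% of all genes tested. Rad51d and Fance were called higher in the former and lower in the latter (22.5% of all genes), 4 genes were called higher in both (3.67%) and 0 lower in both (2.87%). Across the 39 genes Pearson's r between the log2 changes was -0.69 and Spearman's rho -0.69, against -0.58 and -0.66 over all 14513 genes, which are not independent replicates. In 25 genes the libraries were ordered resistant below overexpressing below parental without overlap, as in 17.1% of all genes. Resistant against overexpressing cells, which differ in both background and Tyro3 level, gave 35 genes lower and 0 higher in edgeR, against 28.3% and 27.0% of all genes, with a median of -0.90. The groups did not overlap in 37 genes, against 76.4% of all genes. None was called higher in DESeq2 either, and 0 were higher at an unadjusted p under 0.05. In this comparison the call of Nbn was lost without overexpressing library 1 or resistant library 2, and that of Atr without overexpressing library 1 or resistant library 1. Fancf lost its call without overexpressing library 2 or either resistant library, and Rad51b without resistant library 2. These 4 calls were also lost in DESeq2 and without a filter, and those of Nbn, Atr and Fancf with upper-quartile scaling.

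The change between lower and higher Tyro3 differed in size between the backgrounds. What part Tyro3 itself had in this was not tested. The difference was coded as overexpressing minus parental, less resistant minus knockout. It equals overexpressing minus resistant plus knockout minus parental, so it is not independent of resistant against overexpressing cells above. A positive value is thus a more negative change from lower to higher Tyro3 in the resistant background. The difference was called positive in 34 genes and negative in 1, against 24.7% and 22.0% of all genes, with a median of 0.97. Fanci (2.41, SE 0.17, adjusted p = 6.69e-16) and Brip1 (2.19, SE 0.13, adjusted p = 3.35e-19) had the largest. The exception was Mus81 (-0.50, SE 0.15, adjusted p = 0.00581), whose call was lost in DESeq2, without a filter and without parental library 1. The call of Atr was lost without parental library 1, overexpressing library 1, resistant library 1 or knockout library 2, and that of Rad51b without knockout library 2. Both were also lost without a filter, and Atr in DESeq2. Tyro3 itself rose by 2.07 in the overexpressing line and fell by 2.43 in the knockout line. The change in Tyro3 was thus not of the same size in both, and its range also differed. Resistant cells, the higher side in their background, stood at 20.7 and 21.2 CPM of Tyro3. Parental cells, the lower side in theirs, stood above that, at 25.7 and 24.4 CPM.

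In the repair genes, knockout cells stood close to parental cells. Against parental cells 8 genes were called higher and 3 lower, against 18.1% and 18.3% of all genes, and the median was 0.08. Groups did not overlap in 26 genes, against 64.4% of all genes. The log2 fold change lay within 0.5 of 0 in 38 of 39 genes and within 0.25 in 30. How many of all genes lay within these limits was not counted. The median was also near 0 over all genes tested (0.0003), in the replication genes (-0.11) and in the mitosis genes (-0.07). Bard1 had the highest called value (0.44, SE 0.08, adjusted p = 2.06e-05), followed by Fanci, Fancl, Nbn, Rad54b, Fanca, Fancm and Exo1 at 0.18 to 0.32. Mus81, Brca2 and Xrcc3 were the genes called lower. Of these 11 calls, 3 held under every alternative run. Those lost with 1 library left out were Exo1 and Xrcc3 (without either parental library or knockout library 1), Fancm (without either parental library or knockout library 2), Fanci (parental library 1 or knockout library 1), Nbn (parental library 2 or knockout library 1) and Fanca (parental library 2). Fancl was lost without parental library 2 or knockout library 2 and Rad54b without parental library 1 or knockout library 2, and both without either overexpressing library, which enters only the shared estimate of the spread. DESeq2 called 2 genes higher, and with 1 library left out 4 to 8 were.

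**Figure D3:**
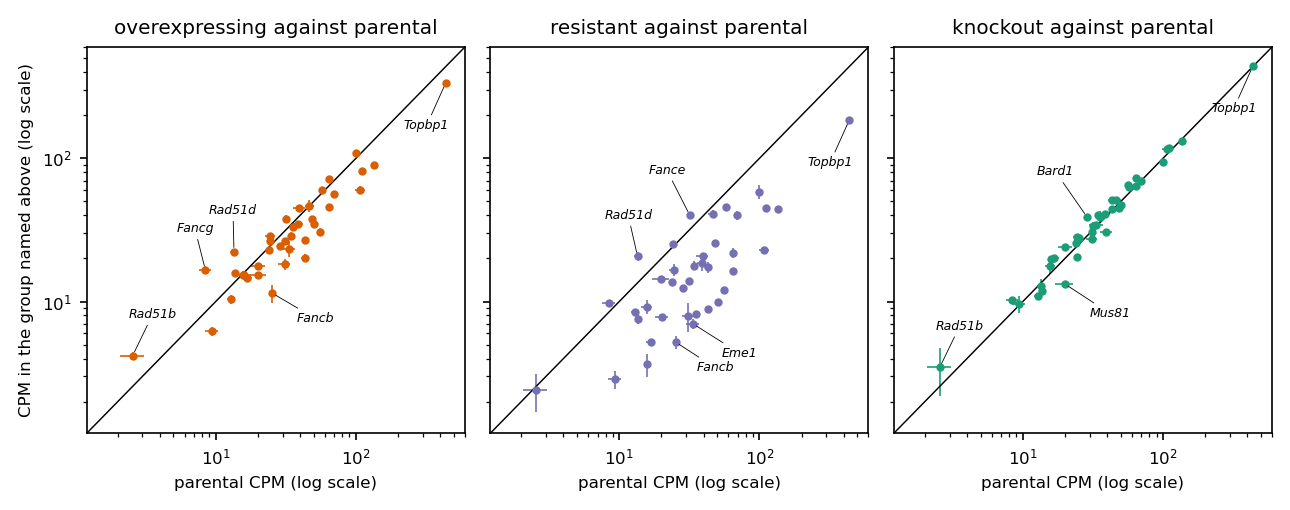
Mean CPM of each of the 39 repair genes in overexpressing, resistant and knockout cells (vertical axes) against parental cells (horizontal axes), both on log scales. Points are means of 2 libraries with SD bars and the line marks equal levels. The resistant points fall below the line except for Rad51d, Fance, Fancg and Xrcc3, with Rad51b close to it, and the knockout points lie along it.

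Levels were compared between genes only in the authors' FPKM, which divide by gene length. Topbp1 had the highest mean level of the 39 genes in every group, 37.8 FPKM in parental and 16.1 in resistant cells. Rad51b (0.662 FPKM) and Fancc (1.09 FPKM) had the lowest levels in parental cells. The order of levels in resistant cells was not that in parental cells. Fance moved from rank 9 to rank 2, at 9.71 FPKM in parental and 12.3 in resistant cells, and Rad51d from rank 29 to rank 8, at 3.53 and 5.46 FPKM. Clspn went from rank 6 to 17 (14.6 to 3.14 FPKM) and Eme1 from rank 7 to 21 (11.8 to 2.48 FPKM). The partners Eme1 and Mus81 changed order, in that the FPKM of Eme1 was above that of Mus81 in parental cells (11.8 and 5.42) and below it in resistant cells (2.48 and 3.96). These ranks are a description and were not tested.

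Other DNA repair and cell cycle lists give the setting for these changes. The other 48 recombination and Fanconi genes had 6 higher and 35 lower in resistant against parental cells (median -0.53) and 34 higher and 7 lower in knockout against resistant cells (median 0.41). Non-homologous end joining (16 genes) had 3 higher and 9 lower in resistant cells (median -0.28), mismatch repair (7 genes) 0 and 5 (median -0.41), base excision repair (17 tested genes) 3 and 9 (median -0.36) and nucleotide excision repair (22 genes) 10 and 12 (median -0.19). Of the 35 replication genes 35 were lower (median -1.71), and of the 29 mitosis genes 29 were (median -2.43). Of the 20 E2F and DREAM regulators 13 were lower and 5 higher (median -0.60). In overexpressing cells 28 of the 35 replication genes were lower and 2 higher (median -0.48), and all 29 mitosis genes were lower (median -0.98). There the other 48 recombination and Fanconi genes had 9 higher and 28 lower (median -0.31). Nucleotide excision repair had 6 higher and 13 lower (median -0.29). The medians were 0.05 in end joining, -0.05 in mismatch repair and 0.02 in base excision repair. Knockout against resistant cells raised 34 replication genes and all 29 mitosis genes (medians 1.57 and 2.36).

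Summed replication genes stood at 67.5% of the parental mean in overexpressing, 32.0% in resistant and 94.2% in knockout cells, and summed mitosis genes at 52.5%, 18.4% and 96.3%. Repair gene CPM per 100 CPM of replication genes was 30.4 and 31.0 in the parental libraries, 37.4 and 36.9 in the overexpressing, 43.2 and 43.1 in the resistant and 33.6 and 33.5 in the knockout libraries. Thus the repair genes lay lower in resistant cells in CPM but higher per replication gene CPM than in any other group. What part the level of cell cycle genes had in the repair gene changes was not tested.

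**Figure D4:**
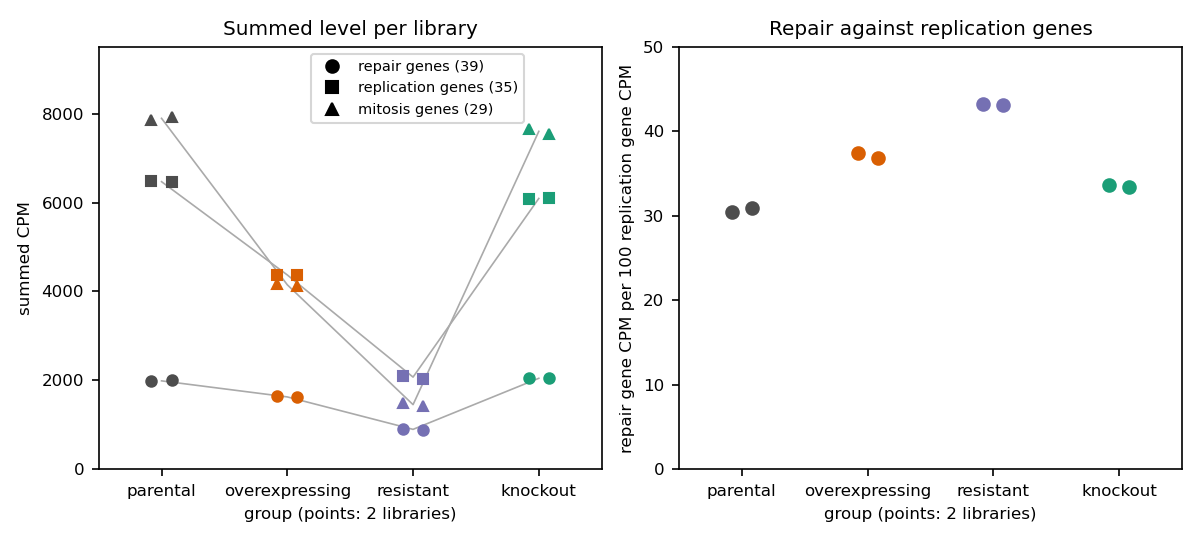
Left, summed CPM of the 39 repair genes, 35 replication genes and 29 mitosis genes in each library, with a line through the group means. Right, repair gene CPM per 100 CPM of replication genes, from 30.4 in a parental library to 43.2 in a resistant one. The resistant libraries are lowest on the left for all 3 lists and highest on the right.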

How the data were processed

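The authors deposited 3 tables, 1 per comparison of 4 libraries of total RNA. Their columns hold, per the file headers, raw counts of reads per gene, FPKM, a log2 fold change and a p-value with its adjusted form. CASAVA, STAR and DESeq2 stand in the submitters' processing notes without a version, beside the builds GRCm38 and mm10. Which program counted the reads, and whether by strand, is not given in the sources used here, so overlapping genes could share reads.

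The deposited counts were merged by gene identifier (24677 genes, 20265 of them in all 3 tables). For libraries that stand in more than 1 table, 0 counts differed. Where a table lacked a gene, its libraries were given 0, which touched 3995 genes and none of the 39. All 39 genes had at least 42 reads in every library. Library totals ran from 18001482 to 27261282 reads.

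Differences were tested in R 4.3.3 with edgeR 4.0.16 (TMM, filterByExpr, glmQLFit, glmQLFTest). All 8 libraries entered 1 fit with a mean per group, so that the groups share an estimate of the spread (common dispersion 0.00123, a coefficient of variation of 3.51%, 4 residual degrees of freedom). Calls were made below an adjusted p of 0.05 (Benjamini-Hochberg over 14513 genes). The SE was taken as the absolute log2 fold change over the square root of F. The FPKM of the authors served only to compare levels between genes. The fit was first tested on simulated data. Replicates of each group differed by more than counting noise (chi-square per degree of freedom 1.98 to 5.25), and all were kept as separate libraries.

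Members and gene lists were chosen with earlier results of these data known, so no list is independent support. Values per library are given for the genes with the largest and the smallest change in resistant against parental cells in each role, and for those not called, or called against the majority, in at least 1 of the comparisons of overexpressing with parental, resistant with parental and knockout with resistant cells. Tyro3 stands beside them, and 1 other gene that the rule named is not reported here. The alternatives tried were upper-quartile or RLE scaling, DESeq2 1.42.0, either no filter or a minimum of 50 reads in 2 libraries, a fit of only the 4 libraries compared, a block for the replicate number, and leaving out every library in turn. The authors' deposited table and the E2F core words were added after seeing the data.

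Promoter words were searched in RefSeq's table of GRCm38.p6, in which 31 of the 39 genes were matched by symbol. For these the promoter nearest the deposited beginning of the gene was used, and for every other gene the first one listed. A stretch is shown only where it is at least 100 bases long and free of GENCODE vM21 exons. This rule replaced a limit of 30 exon bases per window after that limit had been seen to leave only 6 genes, whose largest absolute log2 change in resistant cells was 0.91. None is from chromosome 18, where 1 of the genes lies.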

Additional observations from a re-analysis of the deposited data

Results flagged for a closer look

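A difference between groups drew attention to 35 of the 39 genes. The change from lower to higher Tyro3 was not the same in the parental as in the resistant background, by a test of the difference itself (edgeR's quasi-likelihood test, adjusted p under 0.05). Of all genes tested, 24.7% were called positive and 22.0% negative. All 35 replication genes and all 29 mitosis genes were called positive (medians 1.03 and 1.42). Each value is the log2 change of overexpressing minus parental cells, less that of resistant minus knockout cells. In end sensing and resection the difference was 0.97 for Mre11a, 0.82 for Rad50, 0.48 for Nbn, 0.96 for Rbbp8 and 1.67 for Exo1. For the BRCA complex genes it was 1.71 for Brca1, 1.42 for Bard1, 2.19 for Brip1, 0.90 for Palb2 and 0.72 for Brca2. Among the strand invasion genes it came to 1.22 for Rad51b, 0.85 for Rad51c, 1.01 for Xrcc2, 0.89 for Rad51ap1, 1.63 for Rad54l and 1.43 for Rad54b. The Fanconi core complex gave 1.59 for Fanca, 1.26 for Fancb, 1.14 for Fancc, 1.06 for Fancg, 1.74 for Fancl and 0.93 for Fancm. Ube2t, grouped with it, stood at 0.998. The clamp genes gave 1.70 for Fancd2 and 2.41 for Fanci. Junction processing genes stood at 0.48 for Blm, 1.78 for Eme1, -0.50 for Mus81 and 0.46 for Slx4. Checkpoint genes had 0.53 for Atm, 0.31 for Atr, 0.87 for Topbp1, 1.49 for Clspn, 0.98 for Chek1 and 0.84 for Chek2. The negative value of Mus81 goes with a level below parental in the overexpressing, resistant and knockout libraries alike. Among the genes not called are Rad51d, Xrcc3, Fance and Fancf. No group of libraries was large enough to test a single library for standing apart.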

How the results depend on the processing

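Depth (18001482 to 27261282 reads) was enough for at least 42 reads of every gene, and Rad51b, the thinnest, had the widest error. Under every alternative run, 35 of 36 calls held in resistant against parental, 32 of 36 in knockout against resistant, 31 of 35 in resistant against overexpressing, 17 of 28 in overexpressing against parental and 3 of 11 in knockout against parental cells, and 32 of 35 for the difference between backgrounds. Over all genes named, 3130 results under alternatives held 2960 with the same direction and call, 139 that lost the call, 12 that gained it and 19 of the other sign, of which 0 had been called. The 2 libraries per group limit every p-value, and the cause of each change below was not tested.

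Upper-quartile scaling moved the median of all genes from 0.03 to 0.17 in overexpressing against parental, from -0.02 to -0.17 in knockout against resistant and from 0.03 to 0.19 in resistant against parental cells. The medians of the 39 genes became -0.092, 1.02 and -1.01, and 4 genes were called higher in resistant cells. With it the sign turned in overexpressing cells for Brip1 (0.058), Palb2 (0.11), Fanci (0.099) and Chek2 (0.086), in knockout against resistant cells for Fancg (-0.071) and in resistant against parental cells for Rad51b (0.083), which stood at -0.43 to 0.20 with 1 library left out. With at least 50 reads the medians were -0.19, 1.12 and -1.11, and Palb2 (0.020) and Fanci (0.0048) turned in overexpressing cells. Leaving out 1 library put Palb2 at -0.11 to 0.062 there, and Atr at -0.10 to 0.096. Atr was -0.00026 in DESeq2, -0.013 without a filter and -0.0075 in the authors' deposited table.

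In overexpressing cells 3 genes were called higher in DESeq2, 3 without a filter, 2 in the authors' deposited table and 3 to 8 with 1 library left out. In knockout against resistant cells the authors' deposited table called 1 lower, with a median of 1.202, and the median without a filter was 1.22. With 1 library left out that median was 1.12 to 1.25, and 2 to 3 genes were called lower. In knockout against parental cells 2 were called higher in DESeq2, 3 without a filter and 4 to 8 with 1 library left out (median 0.033 to 0.094). The median of resistant against overexpressing cells was -0.93 without a filter and -0.99 to -0.87 with 1 library left out. For the difference between backgrounds 0 genes were called negative in DESeq2 and 0 without a filter, and 0 to 1 with 1 library left out (median 0.89 to 1.01).

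The replicate number as a block gave 8 higher and 20 lower in overexpressing, 2 and 34 in resistant (both against parental) and 33 and 3 in knockout against resistant cells, and the median was -0.23, -1.17 and 1.17. It ended 2 calls, those of Fancf between resistant and overexpressing and of Fancl between knockout and parental cells, and turned 0. The numbers did not pair the libraries, with correlations of same-numbered deviations of -0.0014 to 0.034.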
